A study of Mus musculus with 3 samples.

Results

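Gene levels were compared between mouse CAD cells 72 h after transfection with Ptbp1-specific siRNAs and CAD cells 72 h after transfection with control siRNAs. CAD is an established catecholaminergic line that the labels call neuroblastoma, and no genotype other than that of the line is given. The pair made up 2 of the 3 libraries of the series, and the third came from cells given Ptbp1 and Ptbp2 siRNAs together. All 3 received ON-TARGETplus siRNAs, and poly(A)+ RNA was read as paired ends. Every gene cluster with a length and no value below 0 could enter, 27224 of 27389, and 1 was kept per symbol, 26801 in all. Of these genes 13262 reached 1 CPM, the read number after scaling for library size, in the higher library and were tested. Over all 27389 clusters the read values summed to 16011466 in the control library and 16899549 in the Ptbp1 siRNA library. After scaling on the clusters kept, 1 CPM stood for 15.3 and 16.97 reads.

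Each condition had 1 library of 1 culture, so no difference below has a replicate check and no p-value is given. The 95% intervals beside the folds cover counting error only, and since PCR copies could not be recognised they may be too narrow even for that. Differences are on the log2(CPM + 1) scale, Ptbp1 siRNA minus control, a scale that shrinks differences at low levels; folds are plain CPM ratios. A gene was called by size when it differed at least 2-fold on that scale and its interval excluded 1. A stricter count kept to the 10626 well-counted genes, with 200 reads or more in both libraries together, and asked that the whole interval lie past 1.5-fold; such genes are called firmly higher or lower here. The siRNAs lower a transcript and do not delete the gene, protein was not measured, and the values are totals per gene that do not separate spliced forms.

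PTBP1 is a polypyrimidine tract binding protein that binds pyrimidine-rich RNA, often just before an exon, and mostly keeps that exon out of the mRNA. It is made in most dividing and non-neuronal cells, and its paralogue PTBP2 takes over in young neurons. The pair are linked by an alternative exon that both genes carry: skipping it shifts the reading frame and sends the mRNA to decay, and PTBP1 promotes that skipping in the transcripts of Ptbp2 and of Ptbp1 itself. PTBP1 loss in cultured neural cells is best known for releasing neuronal exons and, in the work this series belongs to, neuronal introns.

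That exon is shown here because the opposite change of the targeted gene and its paralogue opens the results. It has 34 bases in both genes of the mm9 build, and lies at chr10:79324759-79324792 on the plus strand in Ptbp1 and at chr3:119427530-119427563 on the minus strand in Ptbp2, as exon 10 of the latter. Each line runs 5′ to 3′ with 100 intron bases before the exon and 40 after it. The long run of capitals is the exon, and the short run in the Ptbp2 intron marks a CTCTCT match, a motif PTB proteins are known to bind.
Ptbp1: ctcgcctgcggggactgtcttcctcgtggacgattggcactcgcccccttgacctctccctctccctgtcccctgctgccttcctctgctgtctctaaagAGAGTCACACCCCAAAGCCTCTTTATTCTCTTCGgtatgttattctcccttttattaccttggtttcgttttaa
Ptbp2: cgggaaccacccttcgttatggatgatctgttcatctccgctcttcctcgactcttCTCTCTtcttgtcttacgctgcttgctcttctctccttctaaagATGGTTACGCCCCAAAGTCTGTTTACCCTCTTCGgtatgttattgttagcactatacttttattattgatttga
The exons are identical at 26 of the 34 bases, and C or T make up 71.0% of the 100 bases before the exon in Ptbp1 and 73.0% in Ptbp2.

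Loss of Ptbp1 came with a change in which PTB gene was the most abundant. Ptbp1 (79317351 to 79327179 on chromosome 10) had 7191 reads in the control library and 1486 after Ptbp1 siRNA, a log2 difference of -2.41. Ptbp2 (119421465 to 119486177 on chromosome 3) had 784 reads in the control library and 3044 after Ptbp1 siRNA, a log2 difference of 1.78. Per length, on the authors' RPKM scale, Ptbp1 stood at 101 in the control and 19.8 after its siRNA, while Ptbp2 stood at 6.76 and 24.7. The level of Ptbp2 was thus 0.0667 times that of Ptbp1 in the control library and 1.25 times after Ptbp1 siRNA. Rod1, the older symbol of Ptbp3, the third family member (59484912 to 59562159 on chromosome 4), stood at 14.2 and 13.9 RPKM, a log2 difference of -0.10. The 3 genes summed to 122 RPKM in the control library and to 58.4 after Ptbp1 siRNA, and Ptbp2 made up 5.52% and 42.3% of that sum. Other genes overlap 16.3% of the Ptbp1 exon bases, and since the libraries do not mark strand, their reads could be counted with it.

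Beyond the targeted gene and its paralogue most genes had like levels in both libraries. The median difference was -0.01 over all tested genes, and 94.3% of the well-counted genes lay within 1.5-fold. By size 37 genes were called higher (0.279% of those tested) and 61 lower (0.46%), 0.739% in all. By the stricter count 63 well-counted genes were higher (0.593%) and 177 lower (1.67%), 2.26% in all. Lower genes therefore made up most of the firmly counted differences. Their median control level was 79.8 CPM, against 30.2 CPM for the 63 higher genes and 47.8 CPM for the other well-counted genes. That order is partly built in, since the control level enters the difference by which the genes were chosen. The 177 lower genes held 3.53% of the reads in the control library and 2.04% after Ptbp1 siRNA. The 63 higher genes held 0.329% and 0.621%. The direction of both changes was fixed by the choice of genes. The balance moved with scaling: library totals alone gave 94 higher and 131 lower well-counted genes, so that 41.8% were higher in place of 26.2%. Of the size calls 51.0% were then higher in place of 37.8%, and with the deposited RPKM 27.1%, while 40.9% of the well-counted differences were higher there. Among calls by size, 22 of the 37 higher and 10 of the 61 lower rested on fewer than 200 reads in the pair. By rule these could not be firm, and the other 15 higher and 51 lower calls all were.

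**Figure D1:**
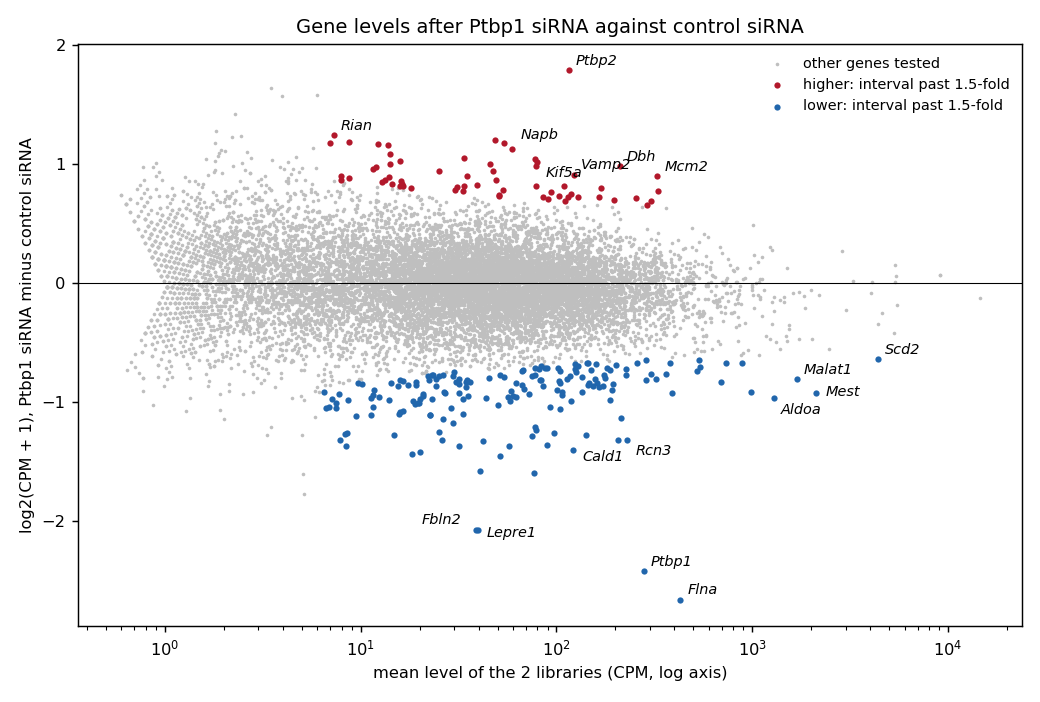
Each point is 1 of the 13262 genes tested, with its mean level in the control and Ptbp1 siRNA libraries in CPM on a log axis and its log2(CPM + 1) difference. Red and blue points are the 63 higher and 177 lower genes whose 95% counting interval lies past 1.5-fold; Flna and Ptbp1 lie lowest at -2.66 and -2.41, and Ptbp2 highest at 1.78.

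Among well-counted genes the largest loss was that of Flna, a gene of the actin cytoskeleton. It encodes filamin A, which cross-links actin filaments and ties them to membrane receptors, and it carries an exon known to respond to PTBP1. Flna had 11306 reads in the control library and 1981 after Ptbp1 siRNA (71468801 to 71491874 on chromosome X), which is 6.35-fold lower (6.05 to 6.66). Flnc, the gene of the muscle filamin, had 6498 and 6418 reads, a difference of -0.17. On the RPKM scale Flna stood at 55.9 in the control and 9.23 after Ptbp1 siRNA, and Flnc at 28.3 and 26.3. Flnc, at the lower per-length level in the control, was thus above Flna after Ptbp1 siRNA.

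Other actin genes were lower by less. Cald1, the caldesmon gene (34548545 to 34725470 on chromosome 6), had 2695 reads in the control library and 1123 after Ptbp1 siRNA and was 2.67-fold lower (2.49 to 2.86). The calponin gene Cnn2 (79451346 to 79458146 on chromosome 10), had 1160 and 461 reads and was 2.80-fold lower (2.51 to 3.12). Lima1, whose product stabilises actin bundles, had 1667 and 794 reads, a difference of -1.21. Iqgap1 encodes a scaffold that links actin to small GTPases, and its 4499 and 2279 reads put it 2.20-fold lower (2.09 to 2.31). The focal adhesion genes Vcl and Tln1, for vinculin and talin, were at -0.89 and -0.86, although 39.9% of the Vcl exon bases overlap another gene. Of the formin genes, which nucleate unbranched filaments and were listed after their values were seen, Fhod1 with 926 and 402 reads was 2.56-fold lower (2.28 to 2.89) and Fmnl3 was at -0.83. Of the 12 formin genes tested 7 were above 0 and 5 below, with a median of 0.02. The list of actin, contractile and focal adhesion genes had 57 of 61 members tested. In it 44 were below 0 and 13 above, 6 were called lower and none higher, and 8 of the 54 well-counted members were firmly lower, with a median of -0.16. Over all genes the shares were 0.46% called lower and 1.67% firmly lower. The list median was near 0 beside single members that were far lower. Zyx, the zyxin gene, was at -0.09, and Actb, for the abundant beta actin, had 74727 and 65429 reads and was at -0.35.

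**Figure D2:**
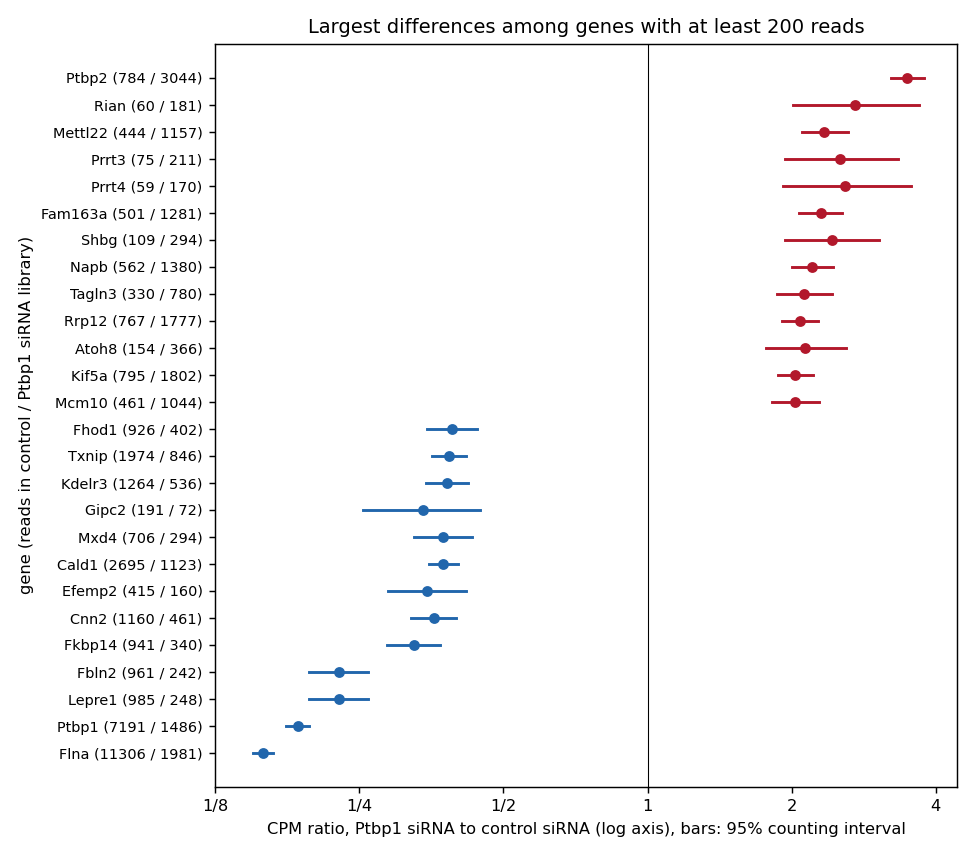
The CPM ratio of Ptbp1 siRNA to control is shown on a log axis for 13 of the 14 largest higher (red) and 13 of the 14 largest lower (blue) log2 differences among genes with at least 200 reads; bars are 95% counting intervals and the numbers in brackets are reads in the control and Ptbp1 siRNA libraries. Flna lies lowest at 6.35-fold lower, and apart from Ptbp2 the genes on the higher side lie below 3-fold, with wide intervals for Rian, Prrt3 and Prrt4.

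Genes that modify collagen and return proteins to the endoplasmic reticulum were lower in nearly every member tested. Lepre1, for a prolyl 3-hydroxylase of collagen (118905521 to 118921583 on chromosome 4), had 985 reads in the control library and 248 after Ptbp1 siRNA and was 4.42-fold lower (3.84 to 5.10). Its paralogue Leprel2 had 560 and 274 reads, a difference of -1.14. Fkbp14, which encodes a proline isomerase for collagen (54527600 to 54547339 on chromosome 6), had 941 and 340 reads and was 3.08-fold lower (2.72 to 3.50). Kdelr3 encodes 1 of the KDEL receptors, which carry escaped resident proteins back from the Golgi. It had 1264 and 536 reads (79346899 to 79358126 on chromosome 15) and was 2.62-fold lower (2.37 to 2.91). Rcn3 and Rcn1, for calcium-binding reticulocalbins of the secretory pathway, had 4977 and 2210 and 2405 and 1339 reads, and differed by -1.32 and -0.99. P4ha1 and P4ha2, the prolyl 4-hydroxylase subunits without which collagen does not form a stable triple helix, were at -0.76 and -0.71, from 6925 and 10274 control reads. Of 31 members tested of 35, 29 lay below 0 and 2 above, 6 were called lower and none higher, and 10 of 28 well-counted members were firmly lower, with a median of -0.45. No member was firmly higher. The shares over all genes were 0.46% called lower and 1.67% firmly lower.

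Export from the endoplasmic reticulum showed the same direction in part of its machinery. The list of COPII coat, cargo receptor and p24 genes was assembled after values had been seen, and its counts describe these genes only. COPII is the coat that buds cargo vesicles from the endoplasmic reticulum, with Sar1 as its GTPase and Sec23 and Sec24 as its inner layer. Sec24d had 2155 reads in the control library and 1142 after Ptbp1 siRNA and was 2.10-fold lower (1.95 to 2.26). Sar1a had 3803 and 2134 reads, a difference of -0.98, and Sec23a 5558 and 3517 reads, a difference of -0.81. Sec23a also stands in the collagen list above, among its firmly lower members. The cargo receptor genes Lman1 and Surf4 were at -0.86 and -0.67. Of 28 members tested, 22 were below 0 and 2 were called lower, beside 0.46% called lower over all tested genes. Their median was -0.27, and 6 of 27 well-counted members were firmly lower, beside 1.67% over all well-counted genes. Creb3l2, from the same added choice, encodes a membrane-bound transcription factor known to drive Sec23a and collagen secretion in cartilage. It had 4499 reads in the control library and 1995 after Ptbp1 siRNA (37277377 to 37392140 on chromosome 6) and was 2.51-fold lower (2.38 to 2.65). Its relative Creb3l1 had 67 and 95 reads. Endoplasmic reticulum chaperone genes, which answer protein misfolding, had no call among 19 tested, beside 0.739% over all tested genes. Their median was -0.10, with Xbp1 at -0.50, Hsp90b1 at -0.24 and Dnajb9 at 0.21.

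Within several of these families 1 paralogue was far lower and another was not. Sec23a was at -0.81 and Sec23b, with 1935 and 2187 reads, at 0.02. Sar1a was at -0.98 and Sar1b, with 1415 and 1490 reads, at -0.08. Sec24d was at -1.06 and Sec24b, with 2015 and 2126 reads, at -0.08, with Sec24a and Sec24c in between at -0.47 and -0.30. Likewise Kdelr3 lay below Kdelr2 and Kdelr1, at -0.59 and -0.42, and Rcn3 below Rcn2, at -0.06. In the cytoskeleton Iqgap1 was at -1.13, Iqgap2 at -0.33 and Iqgap3 at 0.42, Cnn2 at -1.45 and Cnn3 at -0.11, and Tln1 at -0.86 and Tln2 at 0.26. The families were picked after their values were seen, and the differences between paralogues stand against counting error only.

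**Figure D3:**
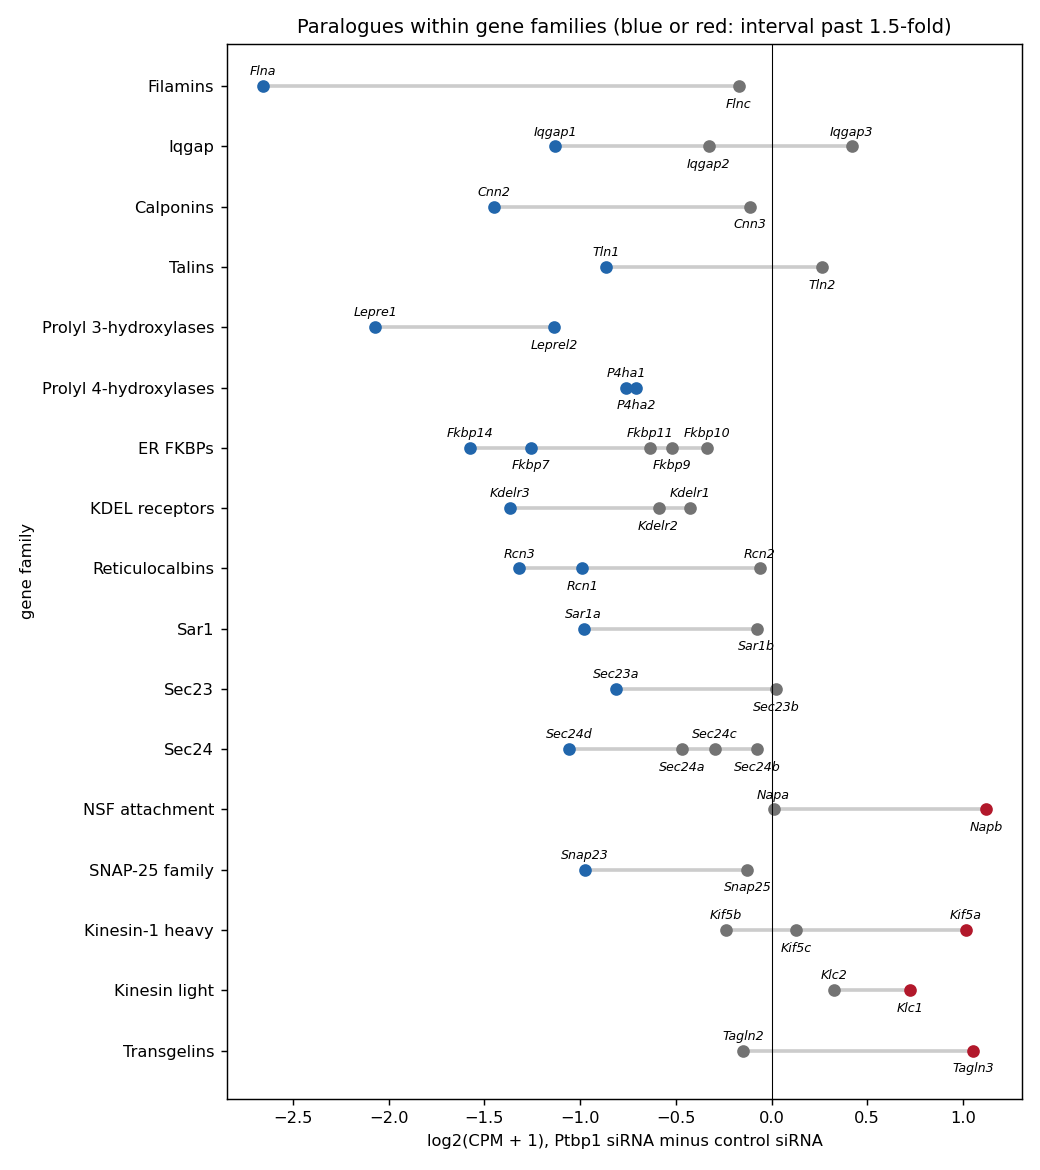
Paralogues of 17 gene families, picked after their values were seen, are placed by their log2(CPM + 1) difference, Ptbp1 siRNA minus control; blue and red points have a 95% counting interval past 1.5-fold and grey points do not. Flna lies apart from Flnc, Sec23a from Sec23b, and Kif5a and Napb, at 1.01 and 1.12, from Kif5b and Napa, at -0.24 and 0.01.

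Extracellular matrix genes included 3 large losses. Fbln2 encodes fibulin 2, a glycoprotein of elastic fibres and basement membranes (91162759 to 91222535 on chromosome 6), and had 961 reads in the control library and 242 after Ptbp1 siRNA, 4.42-fold lower (3.83 to 5.11). Efemp2, for fibulin 4 of elastic fibres (5474702 to 5481854 on chromosome 19), had 415 and 160 reads and was 2.88-fold lower (2.40 to 3.48). Bgn, the gene of the proteoglycan biglycan, had 241 and 115 reads, a difference of -1.11. Sparc, a collagen-binding protein gene, and Agrn, for the basement membrane proteoglycan agrin, were both at -0.77, with 4364 and 2844 and 3376 and 2188 reads. Of 47 listed genes 30 reached the level for a test, with a median of -0.33. In those 30, 25 were below 0 and 3 were called lower, beside 0.46% called lower over all tested genes. Of 23 well-counted genes 5 were firmly lower, beside 1.67% over all well-counted genes. The integrin and collagen receptor genes, which bind that matrix, held no call among 21 tested, beside 0.739% over all tested genes (list median -0.16). Itga5 was at -0.33 and Itga3 at -0.50, while Itga7, on 37 and 96 reads, was at 0.96.

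Lipid and sugar metabolism genes were lower by small amounts across nearly all members. Among cholesterol synthesis and uptake genes, which SREBP2 controls, 24 of 24 tested were below 0. Among them Acat2, for an acetyl-CoA acetyltransferase, had 5852 and 3826 reads and was at -0.76, and Insig1, which holds the sterol sensor in place, had 10010 and 6682 reads and was at -0.74. No cholesterol gene was called by size, beside 0.739% over all tested genes. Of 23 well-counted members 3 were firmly lower, beside 1.67% over all well-counted genes, and the list median was -0.44. Fatty acid synthesis genes behaved alike, with 18 of 19 below 0 and a median of -0.38. Scd2, for a stearoyl-CoA desaturase, gave the largest loss in CPM of any gene, from 81315 to 58048 reads, and was 1.56-fold lower (1.54 to 1.57).

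Glycolysis genes were below 0 in 19 of 20 cases, with a median of -0.36. Aldoa, an aldolase gene, had 25945 reads in the control library and 14775 after Ptbp1 siRNA and was 1.95-fold lower (1.91 to 1.99), although processed copies nearly identical to it make its count uncertain. Aldoc, its brain paralogue, had 2698 and 1582 reads and was 1.90-fold lower (1.78 to 2.02). Of 19 well-counted members these 2 were firmly lower, beside 1.67% over all well-counted genes. Slc2a3, for a glucose transporter, was at -0.61 and Pfkl at -0.57. Pkm2, the muscle pyruvate kinase gene whose alternative exon PTBP1 is known to control, had 23513 and 18544 reads and was at -0.50. Hypoxia-responsive genes outside glycolysis were below 0 in 21 of 23 cases, with a median of -0.35, and Ddit4, a stress-induced inhibitor of mTORC1, went from 16615 to 11627 reads, a difference of -0.67. P4ha1 was in the hypoxia list as well as in the collagen list. Citrate cycle and pentose phosphate genes lay nearer to 0, with a median of -0.10. Their exception was Mdh2, for mitochondrial malate dehydrogenase, which had 7809 and 4571 reads and was 1.90-fold lower (1.83 to 1.97). Nuclear oxidative phosphorylation genes held no call among 40 and ribosomal protein genes none among 42, beside 0.739% called over all tested genes. Their medians were -0.08 and -0.14. Those small medians were reduced to -0.01 and -0.07 under library totals.

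Lysosome and autophagy genes were below 0 in 29 of 30 cases, with a median of -0.28. None was called by size, beside 0.739% over all tested genes. Of 30 well-counted members 2 were firmly lower, beside 1.67% over all well-counted genes. Wipi1, for a protein of the forming autophagosome, had 3821 reads in the control library and 2359 after Ptbp1 siRNA, a difference of -0.84. Gabarap, whose product is conjugated to autophagosome membranes, had 2853 and 1905 reads, a difference of -0.73. FOXO factors and genes known as their targets, listed after values had been seen, were also mostly lower. Txnip encodes a thioredoxin inhibitor that also limits glucose uptake (96362322 to 96365789 on chromosome 3). It had 1974 and 846 reads and was 2.60-fold lower (2.39 to 2.82), with 20.0% of its exon bases shared with another gene. Foxo4, for a forkhead factor that insulin signalling keeps out of the nucleus, had 628 and 301 reads and was 2.32-fold lower (2.02 to 2.67). Insr, the insulin receptor gene, was at -0.81, Ccng2, an unusual cyclin of arrested cells, at -0.72, and Pdcd4, an inhibitor of translation initiation that shares 23.3% of its exon bases, at -1.04. Of 17 genes tested 14 were below 0 and 4 were called lower, beside 0.46% called lower over all tested genes. Their median was -0.33, and 6 of 16 well-counted genes were firmly lower, beside 1.67% over all well-counted genes. Mxd4, whose product opposes Myc at shared DNA sites, had 706 and 294 reads (34519230 to 34530360 on chromosome 5) and was 2.67-fold lower (2.33 to 3.07). Myc itself, with 893 and 1133 reads, was at 0.19.

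Genes of S phase were higher in nearly every member tested. Replication starts where the Mcm2 to Mcm7 helicase has been loaded by Cdc6 and Cdt1, and Mcm10 helps to set it in motion. Mcm10 had 461 reads in the control library and 1044 after Ptbp1 siRNA (4911795 to 4933782 on chromosome 2) and was 2.04-fold higher (1.82 to 2.28). Cdc6 had 490 and 1064 reads, a difference of 0.94. The helicase genes Mcm2, Mcm3, Mcm6 and Mcm5 were at 0.90, 0.77, 0.71 and 0.65, and Mcm2 alone went from 3488 to 7247 reads (88833470 to 88848692 on chromosome 6). Pcna, the sliding clamp of DNA polymerase, had 3547 and 6374 reads and was at 0.69, as was Prim1, the primase gene. In the list 40 of 42 genes were above 0 and the median was 0.46. Of these 42 genes 1 was called higher, beside 0.279% over all tested genes. All 42 were well-counted, and 8 were firmly higher and none lower, beside 0.593% firmly higher over all well-counted genes. An added list of S phase chromatin and repair genes had 22 of 22 above 0, with a median of 0.47. Dscc1, of the loader that helps join sister chromatids, was at 0.89, Timeless, of the replication fork, and the exonuclease gene Exo1 were both at 0.82, and Mybl2, a transcription factor of cycling cells, was at 0.73.

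Other cell cycle lists had medians nearer to 0. E2f1, for the factor that switches on S phase genes, had 1885 reads in the control library and 3650 after Ptbp1 siRNA and was 1.74-fold higher (1.65 to 1.84). It was the 1 firmly higher member among 26 well-counted genes of G1 to S control, beside 0.593% over all well-counted genes. The median of that list was 0.15. Nucleotide synthesis genes, a list of deoxynucleotide genes and of purine and pyrimidine genes, were above 0 in 18 of 20 cases. Their median was 0.33, with no call, beside 0.739% over all tested genes. Ppat, which opens purine synthesis, was at 0.56, and Rrm2, of ribonucleotide reductase, at 0.47. Mitosis genes, 30 of 37 above 0, had a median of 0.10, Ccnb1 being at 0.37 and Ccnb2 at -0.25. Plk1 entered that list through an alias of a cluster named Dctn5, so its value may belong to another gene. Cdkn1a and Cdkn1b, for the cyclin kinase inhibitors p21 and p27, were at 0.32 and -0.37. Genes of the p53 response had a median of -0.01, with 9 above and 9 below 0.

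Genes that build ribosomes and charge tRNAs also leaned to the higher side. Rrp12, for an export factor of ribosomal subunits (41937342 to 41970644 on chromosome 19), had 767 reads in the control library and 1777 after Ptbp1 siRNA and was 2.08-fold higher (1.91 to 2.27). Bop1, of a complex that matures the large subunit, had 1889 and 3477 reads and was at 0.72, and Polr1a, the large subunit of RNA polymerase I, was at 0.65. Of 35 ribosome biogenesis genes tested, 30 were above 0, with a median of 0.29. Cytosolic aminoacyl-tRNA synthetase genes were above 0 in 19 of 20 cases with a median of 0.22. Aars, the alanyl-tRNA synthetase gene, had 12854 and 20016 reads, among the largest gains in CPM, and was 1.40-fold higher (1.37 to 1.43). Qars was the exception at -0.36. The wider stress response to amino acid shortage that raises some synthetases was at a median of 0.08, with 14 of 21 genes above 0.

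**Figure D4:**
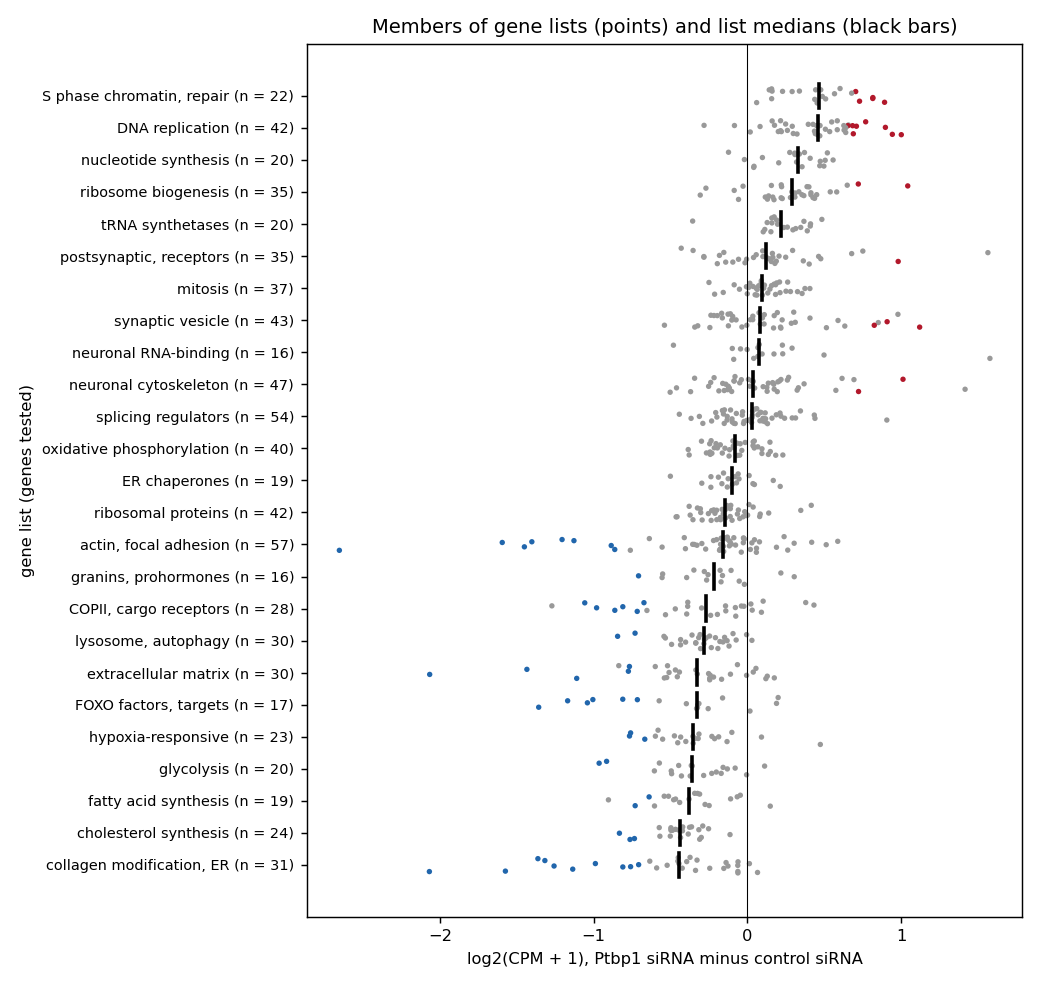
Each point is a tested gene of the list named on the left, placed by its log2(CPM + 1) difference, Ptbp1 siRNA minus control, and black bars are list medians; blue and red points have a 95% counting interval past 1.5-fold. The collagen modification, cholesterol and fatty acid lists have medians of -0.45, -0.44 and -0.38, and the DNA replication list 0.46, while neuronal and splicing lists scatter around 0.

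Neuronal gene lists had medians near 0, but some neuronal genes were higher while their widely expressed paralogues were not. Napb encodes the brain form of the SNAP protein that helps NSF to recycle SNAREs. It had 562 reads in the control library and 1380 after Ptbp1 siRNA (148519724 to 148558157 on chromosome 2) and was 2.21-fold higher (2.00 to 2.44), while Napa, the general form, had 1986 and 2225 reads and was at 0.01. Tagln3, the neuronal transgelin gene (45711344 to 45724645 on chromosome 16), had 330 and 780 reads and was 2.13-fold higher (1.87 to 2.42), while Tagln2 was at -0.15. Kif5a, the neuronal kinesin heavy chain gene, had 795 and 1802 reads and was at 1.01, against -0.24 for the general Kif5b and 0.13 for Kif5c, and of the light chains Klc1 was at 0.72 and Klc2 at 0.32. Snap23, the general relative of Snap25, had 470 and 258 reads and was at -0.97, while Snap25, the synaptic SNARE gene, had 4883 and 4976 and was at -0.13. Vamp2, a synaptic vesicle SNARE gene, was at 0.91 and its general relative Vamp3 at -0.27. Other pairs did not part in this way: Klc2 was above 0 like Klc1, Snap25 was not higher, and the enolase genes Eno1 and Eno2 were at -0.37 and -0.36. The pairs were chosen after their values were seen. The list of such pairs held 25 genes, Ptbp1 and Ptbp2 among them, with 12 above 0, 13 below and a median of -0.10. It pools both members of each pair, so these counts cannot show whether the pairs parted.

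By list, 26 of 43 synaptic vesicle genes were above 0 with a median of 0.08, and 3 of 37 well-counted members were firmly higher. Over all well-counted genes 0.593% were firmly higher. Postsynaptic and receptor genes had a median of 0.12, with Gabbr1, a GABA receptor gene whose transcripts PTBP1 ties to decay, at 0.98 from 806 to 1787 reads. Voltage-gated channel genes had a median of 0.12, axon guidance genes 0.06, and cytoskeleton and transport genes 0.04. The 16 neuronal RNA-binding protein genes tested had a median of 0.07. In that list Rbfox1, a neuronal splicing factor gene, stood apart on 38 and 160 reads, and Celf5, Nova1 and Elavl4 were at 0.50, 0.29 and 0.23. The median of neuronal transcription factor genes was -0.03, and 0.04 with library totals. Widely expressed splicing regulators, 54 tested, held no call, beside 0.739% over all tested genes, and had a median of 0.03. Genes with an exon that PTBP1 is known to control went both ways, and of the 13 tested Flna was the 1 called. The median was -0.17, with 8 of 13 below 0. Among the lower members Pkm2 was at -0.50, Ganab at -0.30, Clta, a clathrin light chain gene, at -0.25 and Actn1, for an actinin, at -0.17. Among the higher ones Cltb, the other clathrin light chain gene, was at 0.70, Tpm2 at 0.59, Tpm1 at 0.30 and Src at 0.15.

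Transcripts that mark CAD cells were present in both libraries. Of 14 sympathetic neuroblast markers 13 were tested, with a median of -0.12, and Th, for the enzyme that opens catecholamine synthesis, had 1426 and 1581 reads and a difference of 0.00. Dbh, for the enzyme that turns dopamine into noradrenaline, had 2153 reads in the control library and 4743 after Ptbp1 siRNA (27021028 to 27038725 on chromosome 2) and was 1.98-fold higher (1.88 to 2.09). Ddc, for the enzyme between them, had 683 and 463 reads and was at -0.69. Granin and prohormone genes leaned lower, 14 of 16, with a median of -0.22. Npy, the neuropeptide Y gene, was at -0.71 from 1702 to 1152 reads, and Vgf and Chgb were at -0.56 and -0.55.

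Markers of other cell types were mostly low. Of 11 fibroblast markers 5 were tested, and all 11 summed to 25.7 CPM in the control library and 21.1 after Ptbp1 siRNA, with Col1a2, Col3a1, Lum and Postn at 0 reads in both. Astrocyte markers, 3 of 9 tested, summed to 134 and 109 CPM, nearly all from Fgfr3 and Glul, with Gja1 and Slc1a3 at 0 reads. Oligodendrocyte and Schwann cell markers, 2 of 10 tested, summed to 36.6 and 37.9 CPM, with Olig1, Olig2 and Mal at 0. Blood and endothelial markers, 3 of 11 tested, summed to 23.7 and 19.1 CPM, with Ptprc and both haemoglobin genes at 0, and epithelial markers, 2 of 14 tested, to 28.1 and 27.7 CPM. Muscle markers, 10 of 16 tested, summed to 392 and 331 CPM, mostly from Myh3, an embryonic myosin heavy chain gene with 4272 and 3574 reads. Sparc, a matrix gene that several cell types make, had 286 and 168 CPM, far above the whole fibroblast sum. The part of other cells in the lower matrix and actin genes was not tested. Fewer cells of a type and less RNA per cell cannot be told apart in such bulk libraries.

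Of the remaining lists, the Myc network had a median of -0.15 and the CREB3 family one of -0.55 over 4 genes. The 4 genes with an exon through which PTBP1 acts on mRNA decay split, with Hps1 at -1.10, Bak1 at -1.05, Dlg4 at -0.15 and Gabbr1 at 0.98. Imprinted genes had a median of -0.10 and nuclear noncoding RNAs one of -0.01, or 0.06 with library totals. Interferon and double-stranded RNA response genes, 25 tested, had a median of -0.03, or 0.04 with library totals. In it Ifitm3, for a membrane protein that blocks virus entry, was at -0.93. Immediate early genes had a median of -0.01 and transcripts limited by nonsense-mediated decay -0.03, and both were above 0 with library totals, as was the REST complex list, with Rest itself at -0.03. SRF and YAP target genes had a median of -0.07, or 0.01 without a filter, with Cyr61 at 0.62 and Axl at -0.76. BMP and TGF-beta pathway genes had a median of -0.08, or 0.02 with the deposited RPKM, and Tgfbr1, a TGF-beta receptor gene, was at -0.70. The phosphatases that switch off MAP kinases went both ways, with Dusp8 and Dusp9 at 0.94 and 0.78 and Dusp4 at -0.65.

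Several well-counted genes outside these groups lay among the largest differences. Mettl22, for a methyltransferase-like protein (8470907 to 8490291 on chromosome 16), had 444 reads in the control library and 1157 after Ptbp1 siRNA and was 2.34-fold higher (2.10 to 2.62). Fam163a (157923097 to 158135157 on chromosome 1) had 501 and 1281 reads and was 2.30-fold higher (2.07 to 2.55). Shbg, for sex hormone binding globulin, had 109 and 294 reads, and Atoh8, for a basic helix-loop-helix factor, 154 and 366. The proline-rich membrane protein genes Prrt3 and Prrt4 had 75 and 211 and 59 and 170 reads. All of them were above 2-fold, and their intervals were wider where reads were few. Id genes, whose products block such helix-loop-helix factors, lay above 0 in 4 of 4 cases, with Id3 at 0.90 from 370 to 780 reads and Id1 at 0.72. On the lower side Gipc2, for a scaffold protein, had 191 and 72 reads and was 2.95-fold lower (2.24 to 3.93).

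Some very abundant RNAs carried large changes in CPM with modest folds. Mest, an imprinted gene of the hydrolase family (30683507 to 30698411 on chromosome 6), had 42401 reads in the control library and 24941 after Ptbp1 siRNA and was 1.89-fold lower (1.86 to 1.92), with 23.0% of its exon bases shared with other genes. Peg3, an imprinted zinc finger gene, was at -0.69. The imprinted noncoding RNA gene Rian went the other way, from 60 to 181 reads. Malat1, a nuclear noncoding RNA, had 32671 and 20757 reads and was 1.75-fold lower (1.72 to 1.78). The mitochondrial transcripts went both ways: mt-Nd4 had 39936 and 53403 reads and was at 0.27, while mt-Co1 had 230487 and 234715 reads and was at -0.13. Mitochondrial genes held 3.73% of the reads in the control library and 3.96% after Ptbp1 siRNA.

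Gene structure and intron sequence of the differing genes were set beside those of all tested genes. CTCTCT, searched on the sense strand in the last 100 bases of each intron of at least 100 bases, was found in 9.97% of 131049 such windows of all tested genes. The share was 9.70% of 112029 windows in the well-counted genes, 10.9% of 688 in the firmly higher genes and 11.3% of 1779 in the firmly lower ones. Over whole introns the order differed: 43.2% of the introns of firmly higher genes, 53.3% of those of firmly lower genes and 54.3% of those of well-counted genes held a match. These are descriptions of letters, and a match is not a binding site. The median total intron length was 15692 bases for firmly higher genes and 15556 for firmly lower genes. It was 20656 for the well-counted genes they come from and 19687.5 for all tested genes. In the same order the median exon number was 11, 10, 10 and 9. By chromosome the share of firmly lower genes was highest on chromosome 4, with 17 of 659 well-counted genes (2.58%), against 1.67% over all chromosomes. Chromosomes 3, 6 and 10 were close to it, at 2.44%, 2.37% and 2.25%. The share of firmly higher genes was highest on chromosome 16, with 5 of 323 (1.55%), against 0.593% over all. These are the highest of many chromosomes and rest on few genes, so no chromosome is set apart by them.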

How the data were processed

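Poly(A)+ RNA of CAD cells was sequenced in 3 libraries, 1 for each siRNA treatment in the labels. The deposited table lists gene clusters on mm9 per the file headers, a build that the submitters' processing notes name too. It gives a net read value and an RPKM value per library, and these deposited columns were recorded as a score, not as raw counts, because 38 clusters hold read values below 0, down to -65. What was subtracted, and the authors' aligner, counting tool and gene set, are not given in the sources used here. Those 38 clusters and 127 without a length were left out. The remaining read values, all whole numbers from 0 up, were then analysed as counts, one of the forms the plan had foreseen, which makes the intervals approximate. The preparation in the labels does not mark strand.

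Clusters were named from their aliases and the GENCODE annotation of the same build (17129 by both alias and position), and 1 was kept per symbol (26801). A list name found only as an alias could fall on a cluster named for another gene, as Plk1 (Dctn5), Rbm4 (Rbm4b) and H2-D1 (H2-Q2) did. Scaling used a trimmed mean of log ratios (30% by ratio and 5% by level removed), with factors of 0.968 for control and 1.02 for Ptbp1 siRNA (numpy 2.4.6, pandas 2.3.3). Intervals are exact 95% Clopper-Pearson intervals of the read ratio (scipy 1.17.1). At 3 counts the level is 0.197 CPM in the control and 0.177 CPM in the Ptbp1 siRNA library. The steps were tested on simulated data.

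Named genes were the PTB genes and Flna, the 14 largest differences per direction among well-counted genes with an established symbol, the 6 largest gains and losses in CPM and up to 4 members per list with at least 50 reads. Of 59 lists 11 were added after values were seen, namely COPII, CREB3, Myc network, FOXO, dual specificity phosphatase, formin, Id, filamin, paralogue pair, BMP and S phase repair genes, and genes named outside the rule were likewise chosen with their values known. All members and lists were chosen with earlier results of these data known. A few genes within the rule are not reported here.

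Alternatives were other pseudocounts, filters, scalings and fold limits, the deposited RPKM, and leaving out clusters that share over 10% of their exon bases.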

Additional observations from a re-analysis of the deposited data

How the results depend on the processing

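The size calls depended on the pseudocount and the limit. Against 37 higher and 61 lower, a pseudocount of 0.1 CPM gave 166 and 138, one of 5 CPM gave 4 and 26, a 1.5-fold limit gave 399 and 461, and a 3-fold limit gave 2 and 7. A filter at 5 CPM gave 22 higher genes, and the deposited RPKM 13 higher and 35 lower. Asking for 1000 reads in the pair left 39 higher and 114 lower well-counted genes in place of 63 and 177. Median-of-ratios scaling gave 37 and 61 size calls and 64 and 173 well-counted genes. Of 44 named genes called by size, 21 kept the call with a pseudocount of 5 CPM, 24 with the deposited RPKM and 40 with library totals. A gene's sign cannot depend on the pseudocount, on a filter or on leaving out other clusters. Library totals moved the median over tested genes only from -0.01 to 0.06 and the deposited RPKM to 0.04, below the 0.1 used next. It was therefore largely fixed beforehand that none of 222 named genes at least 0.1 from 0 changed sign under the other settings. The same holds for the 199 that remained without overlapping clusters. Of 38 lists with such medians, the blood, muscle and epithelial markers changed sign with the deposited RPKM, to -0.34, -0.21 and -0.17. The reason for that was not tested. These lists also changed sign with a filter at 5 CPM, as did the oligodendrocyte markers. At 5 CPM the medians were those of the well-counted members, 1 blood, 4 muscle, 1 epithelial and 1 oligodendrocyte gene. The main setting had 3, 10, 2 and 2 genes tested. No paired analysis was possible because each treatment had 1 library. Depth limits the low genes: 0 reads allow a level of up to 0.197 CPM in the control library and 0.177 CPM after Ptbp1 siRNA.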

Other observations

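Genes called by size on fewer than 200 reads in the pair were not among the well-counted genes above, and those named here were picked after their values were seen. On the lower side Sec16b, of the sites where COPII vesicles form, had 115 reads in the control library and 43 after Ptbp1 siRNA and was 2.98-fold lower (95% counting interval 2.08 to 4.33), and Kcnn1, for a calcium-activated potassium channel, 80 and 29 reads, 3.07-fold lower (1.98 to 4.87). Pyy, for peptide YY, a relative of neuropeptide Y, had 23 and 4 reads.

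On the higher side Rspo1, for a secreted enhancer of Wnt signalling, had 14 and 59 reads and was 3.79-fold higher (2.09 to 7.35). Sema3g, for a secreted semaphorin, had 49 and 140 reads and was 2.57-fold higher (1.84 to 3.63). Slc6a13, for a GABA transporter, had 13 and 49 reads, and Tbx4, a T-box factor gene of the hindlimb, 11 and 49. Their intervals span several-fold, so the order of these genes by size is not settled at this depth.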
